A study of Mus musculus with 8 samples.

Results

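The genes described here encode 9 enzymes that make, recycle, phosphorylate or divert NAD precursors in mouse liver. They were chosen by gene symbol from the 55421 transcripts of the deposited tables: Nampt, Nmnat1, Nmnat3, Nmrk1, Naprt, Nadsyn1, Qprt, Nadk and Nnmt. Where a symbol had several rows, the row with the highest mean count was to be used, but each of the 9 had 1 row, so no measured value entered that step. The list itself was drawn up with earlier results of these data known, including the day and night difference of Nmrk1, so the tests of time are a description of known differences and no independent support for them. All 9 passed the filter on low counts and are among the 14506 transcripts tested.

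Liver RNA came from 8 male C57BL/6J mice in 4 groups of 2. The groups were sudachitin at zeitgeber time 18 (ZT18, in the night), sudachitin at ZT6 (in the day), control at ZT18 and control at ZT6. All mice were bought at 4 weeks of age, ate a high-fat diet with 45% of its calories from fat, and were killed for tissue at 30 weeks of age. Treated mice received sudachitin, a polymethoxylated flavone, by oral gavage at 100 mg per kg every other day between ZT8 and ZT10, and controls received phosphate-buffered saline in the same way, so all groups share the diet and the gavage. The design asks how liver transcripts differ with treatment and with time of day.

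NAD is the electron carrier of fuel oxidation and is also consumed by sirtuins and poly(ADP-ribose) polymerases, so cells rebuild it continuously. Liver is known for using several routes: recycling of nicotinamide by NAMPT and the NMNAT enzymes, entry of nicotinamide riboside through NMRK1, entry of nicotinic acid through NAPRT, and synthesis from tryptophan by the kynurenine route, which QPRT completes. The last routes share NAD synthase (NADSYN1), NADK turns NAD into NADP, and NNMT methylates nicotinamide and so takes it out of the salvage cycle. Nampt is known as a gene driven by the CLOCK and BMAL1 factors in mouse liver, and its transcript is known to vary with time of day.

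Libraries held 13914116 to 17759630.5 counts in exons, and the pairs of mice within groups had r = 0.971 to 0.985 in log2 CPM across tested genes. The time labels could be checked on clock genes: over both treatments, the REV-ERB alpha gene Nr1d1 had a log2 change of -4.25 at ZT18 (SE 0.17, edgeR adjusted p = 9e-06), while the cryptochrome gene Cry1 rose by 1.81 (SE 0.13, adjusted p = 0.00066). Markers of hepatocytes summed to 86100 to 106000 CPM (counts scaled to library size) over 7 genes, none of them at 0 in any library. Control ZT18 replicate 1 stood apart, being at 1 end of the range of all 8 in 38.2% of genes, against 17.4% to 27.7% for each other library. Its summed level of 9 female-biased genes was 368 CPM, against 2.17 to 28.2 CPM in the other 7 libraries. Among the NAD genes, the same library had the highest FPKM of Nampt, Nadsyn1, Nmnat1, Qprt and Nadk and the lowest of Nnmt, which is 6 of 9 at an extreme. For some treatment values and interactions the value without this library is given as well. Values given alone may also depend on it. Its 12 male-biased genes summed to 3980 CPM, the lowest of the 8 libraries, whose others were at 5530 to 13900 CPM. The mouse codes in the titles begin differently in each group, so a cage or handling group, if the codes mark one, cannot be told apart from the groups compared. The time and treatment comparisons share libraries and are not independent of each other.

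Nampt lies on chromosome 12 at 32820335 to 32853349 and Nmrk1 on chromosome 19 at 18631950 to 18652428 (GRCm38), both on the plus strand, and counts were taken over 11 and 9 annotated exons. No exon of another annotated gene overlaps them. Because these were the genes that rose together at night, the bases just before their annotated starts are shown, from RefSeq on GRCm38.p6, 5′ to 3′ on the plus strand. Capitals mark the letters AGGTCA, the core of the sites that REV-ERB receptors bind.

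Nampt, chr12:32820085-32820334: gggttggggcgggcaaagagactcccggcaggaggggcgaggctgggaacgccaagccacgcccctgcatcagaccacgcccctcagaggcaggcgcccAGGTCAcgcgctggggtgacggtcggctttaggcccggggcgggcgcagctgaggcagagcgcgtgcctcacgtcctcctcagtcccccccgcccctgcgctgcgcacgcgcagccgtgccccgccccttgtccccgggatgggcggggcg
Nmrk1, chr19:18631766-18631949: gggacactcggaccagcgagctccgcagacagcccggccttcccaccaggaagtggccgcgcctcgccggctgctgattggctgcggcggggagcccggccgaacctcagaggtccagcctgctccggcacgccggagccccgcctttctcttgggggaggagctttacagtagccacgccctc

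The Nampt stretch holds the 250 bases before the start, and the Nmrk1 stretch the 184 bases before the transcript that was counted, whose start lies 66 bases ahead of the RefSeq one. A total of 3 motifs of clock factors were searched on both strands in windows of 250 bases before and 50 after each start: the E-box CACGTG, the receptor site AGGTCA and the D-box core TTANGTAA, none of which contains another. The Nampt window held 1 receptor site, which begins at position -151 from the start, and neither other motif. None of the 3 was found in the Nmrk1 window. Of all 32851 promoter windows 7.2% held the E-box, 16.3% the receptor site and 2.3% the D-box core, and a match or its lack in so short a window says nothing about binding. Of the 9 genes 7 had windows, 9 in all. Apart from Nampt, a receptor site stood at position 24 in the Nmnat3 window and an E-box at position -40 in 1 of the 2 Nadk windows.

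Levels of the enzymes can be compared as FPKM, which takes exon length into account. The transcripts fell into an abundant and a scarce set. Over the 8 libraries Qprt averaged 42.7 FPKM (range 35.5 to 52.1), Nnmt 41.2 (24.3 to 70.9), Nadk 35.1 (31.0 to 47.4) and Naprt 27.5 (23.7 to 30.0). Nampt averaged 5.54 FPKM (2.99 to 8.96), Nmrk1 4.98 (2.0 to 8.25), Nmnat1 4.11 (3.61 to 5.06) and Nadsyn1 3.19 (2.61 to 3.86), and Nmnat3 was lowest at 0.951 (0.362 to 1.63). The ranges of Naprt and Nampt, of Nadk and Naprt and of Nadsyn1 and Nmnat3 did not overlap. The other neighbours in this order overlapped: Qprt exceeded Nnmt in 5 of 8 libraries and Nampt exceeded Nmrk1 in 6 of 8. The enzymes that finish the kynurenine route and that use nicotinic acid were thus at higher transcript levels than Nampt in each library.

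**Figure D1:**
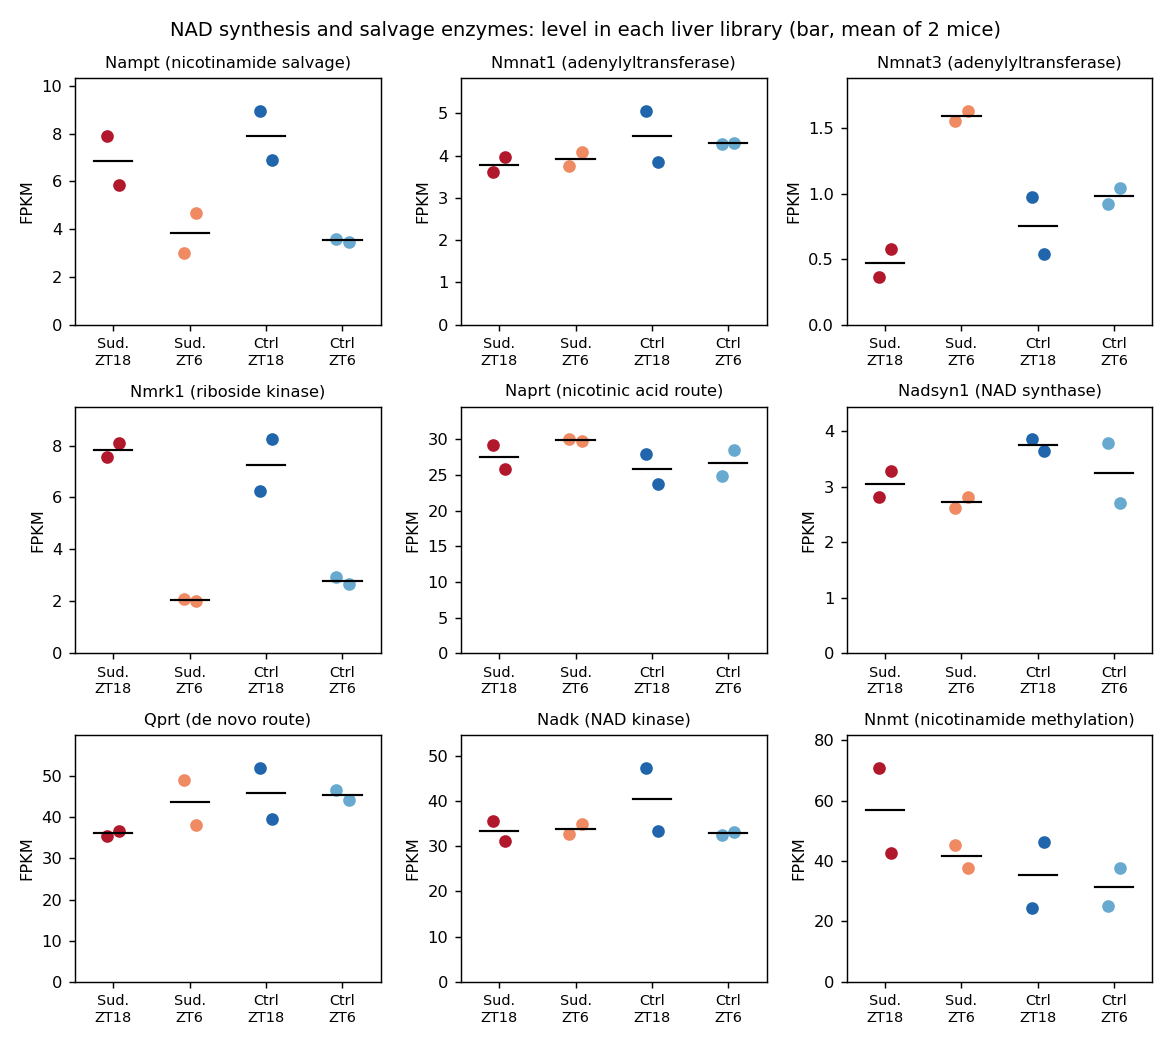
FPKM of the 9 enzymes in the 8 liver libraries. Each panel is 1 gene, each point 1 mouse, each bar the mean of the 2 mice of a group, and the y axes start at 0 with a scale of their own. Nampt and Nmrk1 were higher in each of the 4 ZT18 livers than in any ZT6 liver.

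Between night and day, 2 of the 9 enzymes passed over both treatments: Nmrk1 and Nampt, both higher at ZT18. They start the salvage routes from nicotinamide riboside and nicotinamide. Over all genes 3.68% passed in this comparison (534 of 14506), and 52.7% of all genes were above 0, against 6 of the 9 enzymes. The median log2 change was 0.19 for the 9 enzymes and 0.02 for all genes.

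Nmrk1 encodes nicotinamide riboside kinase 1, which makes nicotinamide mononucleotide from the riboside. In sudachitin livers it was at 7.57 and 8.10 FPKM at ZT18, against 2.1 and 2.0 FPKM at ZT6. In control livers it was at 6.26 and 8.25 FPKM at ZT18, against 2.92 and 2.67 FPKM at ZT6. The 4 night livers averaged 7.55 ± 0.905 FPKM and the 4 day livers 2.42 ± 0.446 FPKM (SD, n = 4 each), with no overlap. Nmrk1 rose by 1.71 on the log2 scale over both treatments, a 3.27-fold difference (SE 0.16, edgeR adjusted p = 0.0017). It still passed in all 8 fits without 1 library, at an adjusted p of 5.2e-05 to 0.0085.

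Within each treatment Nmrk1 was 1 of 9 enzymes that passed, where 0.186% of all genes passed in sudachitin and 0.524% in control livers. It rose at night by 2.02 (SE 0.18, adjusted p = 0.0051) in sudachitin livers and by 1.41 (SE 0.18, adjusted p = 0.021) in control livers. The call in sudachitin livers was lost without sudachitin ZT6 replicate 1 (adjusted p = 0.098) or 2 (0.12). The call in control livers was lost without control ZT6 replicate 1 (0.15) or 2 (0.17), and in a fit of only the 2 control groups (0.14).

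Nampt encodes nicotinamide phosphoribosyltransferase, the rate-limiting enzyme of NAD salvage from nicotinamide. In sudachitin livers it was at 7.88 and 5.85 FPKM at ZT18, against 2.99 and 4.67 FPKM at ZT6. In control livers it was at 8.96 and 6.88 FPKM at ZT18, against 3.60 and 3.47 FPKM at ZT6. The night livers averaged 7.39 ± 1.34 FPKM and the day livers 3.68 ± 0.712 FPKM (SD, n = 4 each), again with no overlap. Nampt rose by 1.05 over both treatments, a 2.08-fold difference (SE 0.15, edgeR adjusted p = 0.0088), and still passed in all 8 fits without 1 library (0.008 to 0.04). Within 1 treatment it did not pass, with 0.93 (SE 0.22, adjusted p = 0.14) in sudachitin and 1.18 (SE 0.22, adjusted p = 0.069) in control livers. Without control ZT18 replicate 2 the control comparison did pass (0.035), and DESeq2 called both (adjusted p = 0.0077 in sudachitin and 6.9e-05 in control livers). DESeq2 called 0.942% of all genes in sudachitin and 0.938% in control livers.

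The 2 night-high transcripts did not keep 1 ratio to each other. Nmrk1 over Nampt in FPKM was 0.96 and 1.39 in sudachitin livers at ZT18 and 0.702 and 0.427 at ZT6, with no overlap. In control livers it was 0.698 and 1.2 at ZT18 and 0.811 and 0.77 at ZT6, where the groups overlapped. This ratio was not tested.

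Nicotinamide mononucleotide from either entry is joined to the adenylyl group by the NMNAT enzymes, of which NMNAT1 sits in the nucleus and NMNAT3 in mitochondria. Nmnat1, on chromosome 4 at 149468559 to 149485198, was at 3.61 to 5.06 FPKM in all libraries and had log2 changes at night of 0.04 (SE 0.16, adjusted p = 0.95) in sudachitin and 0.08 (SE 0.16, adjusted p = 0.88) in control livers. Nmnat3, on chromosome 9 at 98296604 to 98420438, rested on 11.5 to 46 counts per library. In sudachitin livers Nmnat3 was at 0.362 and 0.581 FPKM at ZT18, against 1.56 and 1.63 FPKM at ZT6, with no overlap. In control livers it was at 0.973 and 0.538 FPKM at ZT18, against 0.921 and 1.04 FPKM at ZT6, with overlap. Its log2 change at night was -1.65 (SE 0.36, adjusted p = 0.13) in sudachitin livers, -0.33 (SE 0.36, adjusted p = 0.75) in control livers and -0.99 (SE 0.32, adjusted p = 0.13) over both. None of these passed in the main edgeR fit. Without a filter on low counts, edgeR called Nmnat3 in sudachitin livers (adjusted p = 0.0015) and over both treatments (0.0077). That setting called 861 and 1629 of 28464 transcripts in these comparisons, against 27 and 534 of 14506 in the main fit. Without control ZT18 replicate 1, the library that stood apart, the value over both treatments was -1.34 and passed (adjusted p = 0.024).

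The enzymes of the nicotinic acid and de novo routes did not pass between times. Naprt, nicotinate phosphoribosyltransferase, on chromosome 15 at 75890956 to 75894481, had a log2 change at night of -0.03 over both treatments (SE 0.08, edgeR adjusted p = 0.85). Its exons overlap those of Eef1d on the same strand over 277 bases, so part of its count is uncertain. Nadsyn1, NAD synthase, on chromosome 7 at 143795584 to 143822841, differed by 0.24 (SE 0.12, adjusted p = 0.29). Qprt, quinolinate phosphoribosyltransferase, on the same chromosome at 127107114 to 127122226, differed by -0.08 (SE 0.11, adjusted p = 0.74).

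Nadk, the kinase that makes NADP from NAD, lies on chromosome 4 at 155562378 to 155590997. It was at 47.4 FPKM in control ZT18 replicate 1 and at 31.0 to 35.6 FPKM in the 7 other libraries. Its log2 change at night in control livers was 0.31 (SE 0.15, adjusted p = 0.42), and 0.09 (adjusted p = 0.82) without that library. In sudachitin livers the change was 0.06 (SE 0.15, adjusted p = 0.90).

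**Figure D2:**
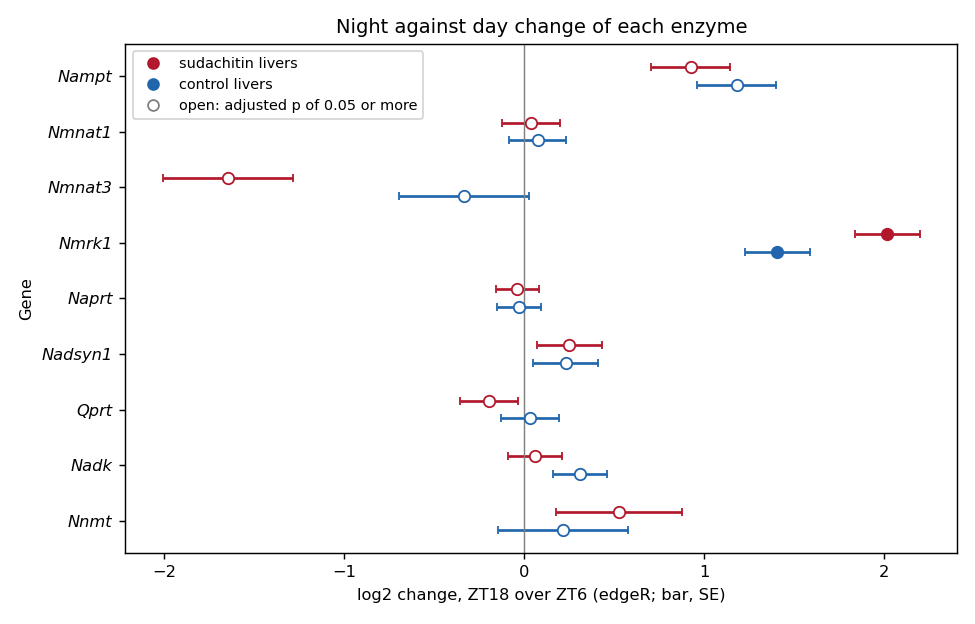
Log2 change from edgeR at ZT18 over ZT6 for each enzyme, in sudachitin livers (red) and control livers (blue). Bars are the SE, filled points passed at an adjusted p under 0.05 and open points did not. Nmrk1 passed in both treatments, at 2.02 in sudachitin and 1.41 in control livers, and Nampt was above 0 in both without passing.

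No enzyme of the set passed between sudachitin and control in edgeR. At ZT18, where 0.0138% of all genes passed (2 of 14506, and 945 were under 0.05 before adjustment), 0 of 9 enzymes passed and none had an unadjusted p under 0.05. At ZT6, where 0.0% of all genes passed (308 were under 0.05 before adjustment, and DESeq2 called 7), 0 of 9 passed and 1, Nmrk1, had an unadjusted p under 0.05. Over both times, where 0.0207% of all genes passed (3 of 14506, and 640 were under 0.05 before adjustment), 0 of 9 passed and 1, Nnmt, had an unadjusted p under 0.05. DESeq2 and limma on log2(FPKM + 0.1) called none of the 9 in these 3 comparisons.

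Nnmt encodes nicotinamide N-methyltransferase and lies on chromosome 9 at 48591877 to 48605153. At ZT18 it was at 70.9 and 42.6 FPKM in sudachitin livers, against 24.3 and 46.4 FPKM in control livers. At ZT6 it was at 45.3 and 37.8 FPKM in sudachitin livers, against 25.1 and 37.6 FPKM in control livers. The groups overlapped at ZT18 and stood just apart at ZT6. The log2 difference was 0.72 at ZT18 (SE 0.36, edgeR adjusted p = 0.79), 0.41 at ZT6 (SE 0.36, adjusted p = 1.0) and 0.57 over both times (SE 0.25, unadjusted p = 0.045, adjusted p = 1.0). At ZT18 it was 0.29 without control ZT18 replicate 1 and 0.33 without sudachitin ZT18 replicate 1, and 1.34 without control ZT18 replicate 2 (adjusted p = 0.093). At ZT6 it was 0.15 without control ZT6 replicate 1, 0.27 without sudachitin ZT6 replicate 1 and 0.73 without control ZT6 replicate 2. Over both times it was 0.37 without control ZT18 replicate 1.

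Nmrk1 at ZT6 was at 2.1 and 2.0 FPKM in sudachitin livers, against 2.92 and 2.67 FPKM in control livers. The log2 difference was -0.44 (SE 0.19, unadjusted p = 0.044, edgeR adjusted p = 1.0), and it was below 0 in each alternative, at -0.51 to -0.32. At ZT18 the sudachitin livers were at 7.57 and 8.10 FPKM and the control livers at 6.26 and 8.25 FPKM, which overlap, with a difference of 0.17 (SE 0.17, adjusted p = 0.90) that was -0.07 without control ZT18 replicate 1.

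Nampt overlapped between treatments at both times, with differences of -0.14 at ZT18 (SE 0.21, adjusted p = 0.93) and 0.12 at ZT6 (SE 0.22, adjusted p = 1.0). Nadsyn1 was at 2.81 and 3.28 FPKM in sudachitin and 3.86 and 3.64 FPKM in control livers at ZT18, which do not overlap. At ZT6 it was at 2.61 and 2.81 FPKM in sudachitin and 3.78 and 2.71 FPKM in control livers, which do overlap, and the difference over both times was -0.24 (SE 0.12, adjusted p = 1.0). Qprt at ZT18 was at 35.5 and 36.7 FPKM in sudachitin livers, against 52.1 and 39.6 FPKM in control livers, with a difference of -0.28 (SE 0.16, adjusted p = 0.81). The Qprt difference at ZT18 was -0.13 without control ZT18 replicate 1 and -0.41 without control ZT18 replicate 2. Naprt differed by 0.16 over both times (SE 0.08, adjusted p = 1.0), Nmnat1 by -0.15 (SE 0.10, adjusted p = 1.0) and Nadk by -0.08 (SE 0.11, adjusted p = 1.0). Without control ZT18 replicate 1 the values at ZT18 were 0.00 for Nampt, -0.01 for Nmnat1 and 0.01 for Nadk, against -0.14, -0.16 and -0.21 with it. Over both times the values without it were -0.08 for Nmnat1 and 0.03 for Nadk.

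Nmnat3 had a treatment difference of -0.62 at ZT18 (SE 0.38, adjusted p = 0.83) and 0.69 at ZT6 (SE 0.34, adjusted p = 1.0). The ZT18 value was -0.20 without control ZT18 replicate 1 and -0.34 without sudachitin ZT18 replicate 1, and -0.98 without sudachitin ZT18 replicate 2.

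**Figure D3:**
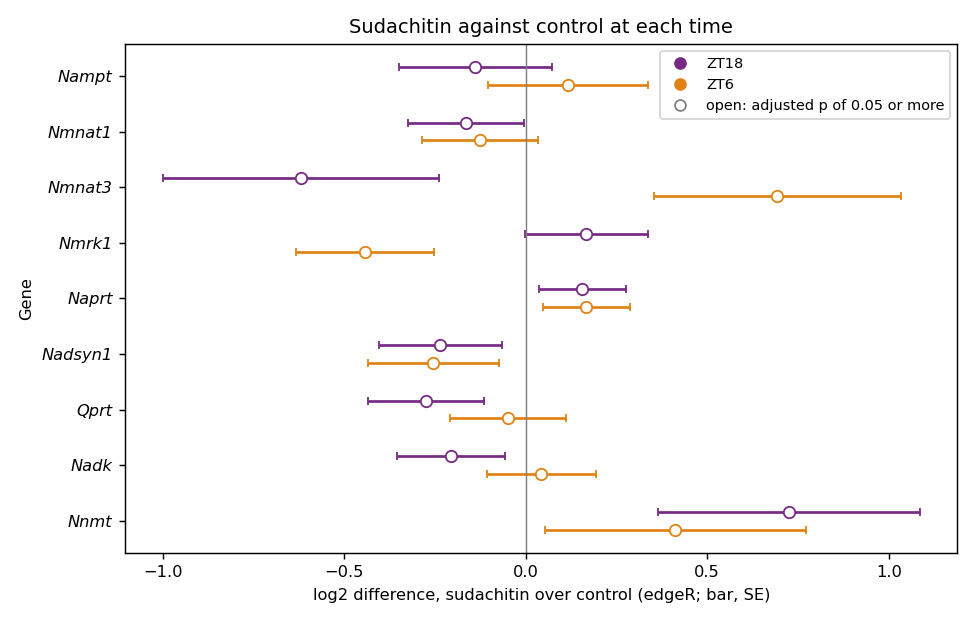
Log2 difference from edgeR of sudachitin over control for each enzyme at ZT18 (purple) and ZT6 (orange). Bars are the SE, and all points are open because none passed at an adjusted p under 0.05. Nnmt was above 0 at both times, at 0.72 and 0.41, and Nmnat3 was at -0.62 and 0.69, with the ZT18 value at -0.20 without control ZT18 replicate 1.

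Whether the night and day difference itself depended on treatment was tested by the interaction. No enzyme passed (0 of 9), and 0.0% of all genes did in edgeR (548 were under 0.05 before adjustment, and DESeq2 called 14). At an unadjusted p under 0.05 there were 2 enzymes, and DESeq2 called none of the 9. The 2 were Nmrk1, whose night change was larger in sudachitin than in control livers by 0.61 (SE 0.25, unadjusted p = 0.04, adjusted p = 1.0), and Nmnat3, with a difference of -1.31 (SE 0.51, unadjusted p = 0.031, adjusted p = 1.0). Without control ZT18 replicate 1 these were 0.37 for Nmrk1 and -0.90 for Nmnat3, and without control ZT18 replicate 2 they were 0.88 and -1.62. For Nampt the difference was -0.25 (SE 0.30, adjusted p = 1.0), and -0.12 without control ZT18 replicate 1.

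Other genes of NAD metabolism were taken from 3 lists of 44 genes: the kynurenine route, further synthesis, transport and turnover enzymes, and NAD consumers. Of these 38 were tested. Ido1, Nmnat2, Nmrk2, Slc12a8, Slc22a13 and Bst1 had too few counts, with at most 0.0879 FPKM in any library. Nmrk2, the second riboside kinase, is among them, with at most 0.0339 FPKM.

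Over both treatments 1 of the 38 rose at night, 1 fell and 36 did not pass, so 5.26% passed, a share near the 3.68% of all genes. The median log2 change of the 38 was -0.05, against 0.02 for all genes. Nt5c2, a cytosolic nucleotidase, was at 1.74 and 1.78 FPKM in sudachitin and 2.27 and 2.07 FPKM in control livers at ZT18. At ZT6 it was at 1.53 and 1.35 FPKM in sudachitin and 1.58 and 1.33 FPKM in control livers, and each night liver exceeded each day liver. It rose by 0.48 (SE 0.10, edgeR adjusted p = 0.039) and passed in 1 of the 8 fits that leave out a library (0.048 to 0.12).

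Aox3, an aldehyde oxidase of mouse liver whose family oxidizes methylated nicotinamide, was at 31.2 and 39.5 FPKM in sudachitin and 34.3 and 30.3 FPKM in control livers at ZT18. At ZT6 it was at 52.9 and 50.4 FPKM in sudachitin and 44.7 and 65.5 FPKM in control livers, so each night liver was below each day liver. It fell by 0.61 at night (SE 0.14, edgeR adjusted p = 0.047) and passed in 2 of the 8 fits that leave out a library (0.031 to 0.13). Nnmt, at the start of the methylation branch, had a log2 change of 0.37 (SE 0.25, adjusted p = 0.44).

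None of the 10 tested kynurenine route genes and none of the 16 tested NAD consumers, among them the sirtuins and poly(ADP-ribose) polymerases, passed between times over both treatments in edgeR. Of the 38 genes 8 had an unadjusted p under 0.05 in edgeR, as had 2957 of all 14506. DESeq2 called 4 of the 38, and limma on log2(FPKM + 0.1) called 0. Of the 28464 transcripts with any count DESeq2 called 928 (3.26%). Many of these were too scarce for the edgeR filter, which all 38 passed, so the 2 shares are not alike. The smallest p-values on the kynurenine list were those of Kynu, kynureninase, at -0.31 (SE 0.10, adjusted p = 0.11) and Afmid, kynurenine formamidase, at 0.40 (SE 0.13, adjusted p = 0.13). Among the consumers they were those of the polymerases Parp1 at -0.19 (SE 0.09, adjusted p = 0.27) and Parp3 at -0.19 (SE 0.09, adjusted p = 0.29). Within 1 treatment 0 of the 38 passed between times, with 5 at an unadjusted p under 0.05 in each treatment. Among all 14506 genes 1835 in sudachitin and 1874 in control livers were under 0.05. In sudachitin livers the smallest p-values were those of Slc25a51, the mitochondrial NAD carrier, at 0.59 (SE 0.19, adjusted p = 0.25) and Afmid at 0.55 (SE 0.19, adjusted p = 0.29). In control livers they were those of Nt5c2 at 0.59 (SE 0.15, adjusted p = 0.16) and Aox3 at -0.75 (SE 0.20, adjusted p = 0.18). DESeq2 called 0 of the 38 in sudachitin and 1 in control livers, and limma on log2(FPKM + 0.1) called 0 in both.

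Between treatments 0 of the 38 passed in the main edgeR fit or in DESeq2 in any comparison. In the main fit 2 had an unadjusted p under 0.05 at ZT18, 0 at ZT6 and 2 over both times. Among all 14506 genes these counts were 945, 308 and 640. All 10 tested kynurenine route genes were above 0 at ZT18, with a median of 0.26, where 49.6% of all genes were above 0. Without control ZT18 replicate 1, a setting chosen after seeing the data, 7 of 10 were above 0 with a median of 0.14. Of the 12 male-biased genes all 12 were above 0 at ZT18 with a median of 1.08, and 11 with a median of 0.41 without that library. The part of that list in these values was not tested. The smallest p-values at ZT18 were those of Kyat3 at 0.49 (SE 0.19, adjusted p = 0.72) and Aadat at 0.38 (SE 0.16, adjusted p = 0.74, and 0.29 without control ZT18 replicate 1), a pair of kynurenine aminotransferases. At ZT6 they were Parp14 at 0.23 (SE 0.12, adjusted p = 1.0) and Pnp, purine nucleoside phosphorylase, at 0.27 (SE 0.17, adjusted p = 1.0). Over both times they were Sirt5, a mitochondrial deacylase, at -0.25 (SE 0.10, adjusted p = 1.0) and Parp14 at 0.19 (SE 0.08, adjusted p = 1.0). For the interaction, where 0 of the 38 passed and 0 had an unadjusted p under 0.05, they were Aadat at 0.47 (SE 0.22, adjusted p = 1.0) and Nt5e at -1.63 (SE 0.89, adjusted p = 1.0). Nt5e, an ectonucleotidase, was at 26.4 CPM in control ZT18 replicate 1 and 3.93 to 9.54 CPM in the other 7 libraries. Its interaction value was -0.31 without control ZT18 replicate 1. Nt5e passed in 1 of 18 alternatives for treatment at ZT18 and in 1 of 17 for the interaction.

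**Figure D4:**
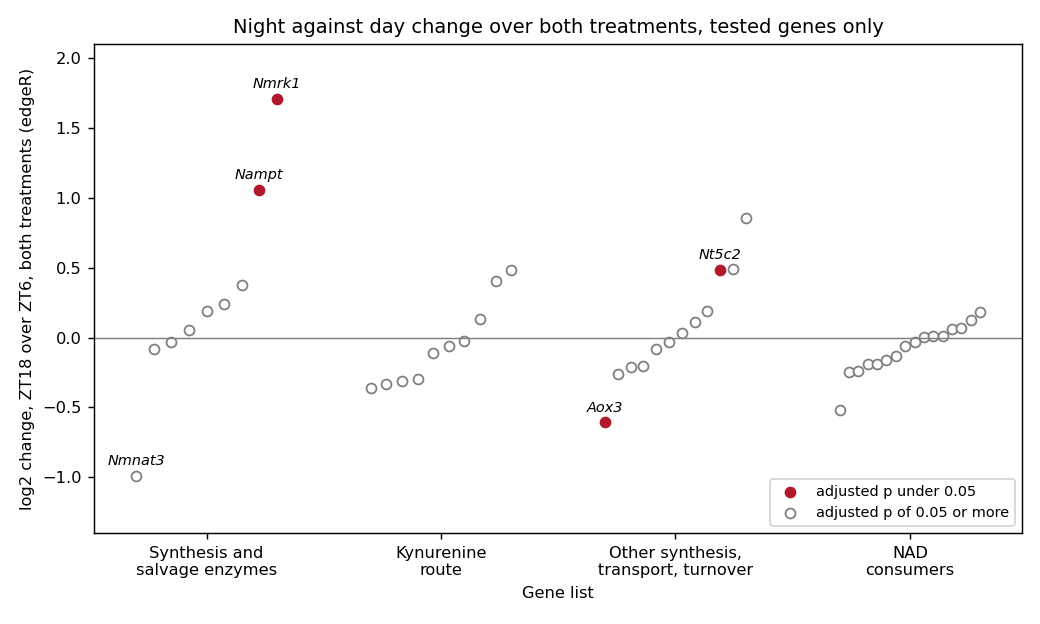
Log2 change from edgeR at ZT18 over ZT6 over both treatments, for the 9 enzymes and the 38 other tested genes of NAD metabolism, sorted by value within each list. Red points passed at an adjusted p under 0.05 and open points did not. Nmrk1 at 1.71 and Nampt at 1.05 lie above the values of all other genes shown.

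Among 8928 genes with a mean of at least 5 CPM, those most like Nampt across the 8 libraries, by Pearson's r of log2 CPM, were Esr1 (0.980), Ptpn21 (0.976), Mapre2 (0.976), Smim10l1 (0.968) and Wee1 (0.964). Those most like Nmrk1 were Pear1 (0.978), Rbm14 (0.973), Baz1b (0.973), Nelfa (0.969) and Trim7 (0.968). Nampt and Nmrk1 correlated with r = 0.857. These are descriptions over 8 libraries that share 1 split into night and day, and the list is the top of many genes.

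Markers of other cells were read beside these results, since whole liver mixes cell types and, in bulk RNA, fewer cells of a type and less RNA per cell cannot be told apart. The 5 cholangiocyte markers, none of them at 0, summed to 62.1 and 32.6 CPM in sudachitin livers at ZT18 and 22.8 and 35.5 CPM at ZT6. In control livers they summed to 76.4 and 45.9 CPM at ZT18 and 29.5 and 27.5 CPM at ZT6. All 5 were above 0 at night with a median of 0.56 and none passed in edgeR. These sums were mostly Spp1, at 14.8 to 66.7 CPM per library, while Krt19, Krt7 and Epcam were at no more than 1.83 CPM in any library. The 12 macrophage markers, none at 0, summed to 229 and 205 CPM in sudachitin and 273 and 156 CPM in control livers at ZT18, and to 219 and 340 CPM in sudachitin and 167 and 195 CPM in control livers at ZT6. With treatment, all 12 were above 0 at ZT6 with a median of 0.62. This median was 0.26 without sudachitin ZT6 replicate 2 and 0.9 without replicate 1. At ZT18 5 of 12 were above 0 with a median of -0.03, or 12 of 12 with a median of 0.54 without control ZT18 replicate 1. None passed at either time in the fit of all libraries. Of 4 adipocyte markers 3 were at 0 in some library, and the list summed to 15.1 and 2.52 CPM in sudachitin and 15.3 and 5.76 CPM in control livers at ZT18, which overlap. At ZT6 it summed to 2.34 and 2.52 CPM in sudachitin and 13.5 and 9.35 CPM in control livers, which do not. These sums were nearly all Cfd, the only marker of the 4 that was tested. Adipoq, Plin1 and Lep were at no more than 0.211 CPM in any library. The difference at ZT6 is therefore that of Cfd. The part of these lists in the NAD gene results was not tested.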

How the data were processed

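Per the labels' protocols, poly(A)-selected liver RNA was read without strand information, and per the submitters' processing notes the tools were Trimmomatic 0.39, STAR 2.7.2a and HOMER, with no roles named. The authors deposited estimated counts in exons, in steps of 0.5 and not normalized, and values ending in 0.5 were taken up to the next whole number. They also deposited FPKM, which equals each count divided by exon length and by the total in the file's header. The handling of multiply placed reads is not stated. Titles gave each mouse's group and replicate number, and same-numbered mice share only that number. Depth was 13914116 to 17759630.5 counts in exons per library.

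The edgeR 4.0.16 quasi-likelihood F test (R 4.3.3) used TMM factors, edgeR's own filter on low counts, which kept 14506 transcripts, and all 8 libraries. P-values were adjusted by Benjamini-Hochberg over those transcripts, and 0.05 was the threshold. A model of 4 group means gave time within each treatment, treatment at each time and their interaction. An additive model gave the pooled effects. The SE is the size of the log2 change over the square root of F. Only the edgeR fit of time over both treatments was tested on simulated counts, with 1 dispersion for all genes. The other comparisons and tools were not tested in this way. Alternatives were DESeq2 1.42.0, limma 3.58.1 on log2(FPKM + 0.1) or log2(FPKM + 1), other scaling and filters, fits of the compared groups alone, a replicate block and leaving out each library.

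The 9 members, the other lists and the rule for names were chosen with earlier results of these data known. Of the other NAD genes, those that passed are named, and the 2 with the smallest p where none of a comparison or list passed. Promoter windows came from RefSeq on GRCm38.p6.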

Additional observations from a re-analysis of the deposited data

How the results depend on the processing

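Of 1100 values of the 9 enzymes under alternatives, 1081 stayed on their side of the threshold, 8 lost a call and 11 gained one, and none that passed changed sign. Signs differed in 52 values that did not pass, none with a main size above 0.31. Between times in sudachitin livers 1 enzyme passed, against 2 with DESeq2, 3 without a filter on low counts and 0 to 1 with a library left out. In control livers 1 passed, against 2 with DESeq2 or without a filter, 0 with only the groups compared or with limma on log2(FPKM + 0.1) filtered or not, and 0 to 2 with a library left out. Over both treatments 2 passed, against 4 without a filter and 1 with limma on log2(FPKM + 0.1) without a filter, where Nampt was at 0.1. Without a filter, edgeR called 1 enzyme between treatments, Nnmt, at ZT18 (adjusted p = 0.0014) and over both times (0.00018). That setting called 488 of 28464 transcripts at ZT18 and 309 over both times, against 2 and 3 of 14506 in the main fit. The cause was not tested. The highest counts over all genes that follow all come from that setting. Over all genes the count of 534 ranged from 92 to 1629, 76 from 4 to 881, 27 from 1 to 861, 2 at ZT18 from 0 to 488, 3 from 1 to 309, and the 0 at ZT6 and for the interaction up to 67 and 259. With total counts 19 genes passed between times in sudachitin livers, 8 higher and 11 lower, against 27 in the main fit, 16 higher and 11 lower. Same-numbered mice share only a number, and their deviations correlated at -0.179 to 0.281. With the replicate block 1, 1 and 2 enzymes passed in these 3 time comparisons, as in the main fit. Each group has 2 mice. P-values of the main fit measure only the spread between mice, estimated over all 8 libraries and moderated across genes. In the additive model that spread also takes in any interaction of treatment and time. Where a library is left out, the lone mouse is assumed to vary like the other groups. Nmnat3, at 11.5 to 46 counts, is limited by depth.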
